A study of Mus musculus with 6 samples.

Results

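The AP-1, Egr and immediate-early genes Fos, Fosb, Jun, Junb, Jund, Egr1, Egr2, Nr4a1, Ier2 and Dusp1 were followed across 6 RNA-seq libraries of sorted mouse thymocytes. The 10 genes were taken by symbol, adding the FPKM of all rows that carried the symbol. All 10 were found, each as 1 row with no other symbol in each of the 6 tables, out of 24318 symbols, and all 10 were among the 11255 genes tested. FPKM is a fragment count divided by transcript length and by the size of the library, so levels of different genes can be set side by side.

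The cells were thymocytes at the double-negative 1 (DN1) stage, sorted as CD44+ cells without lineage markers and without CD25, CD8a or TCRb on the surface. A first group of 3 libraries is labelled Tle134-deficient (titled Tle134 mutant) and a second group of 3 is labelled WT, both from animals 5 to 8 weeks old. The labels do not spell out the alleles or give a Cre driver, and whether each library stands for its own animal is not stated. P-values then reflect only how far these libraries lay apart, and that spread may be technical. Tle1, Tle3 and Tle4 encode Groucho-type corepressors. Tle1 was at 11.5, 11.3 and 11.1 FPKM in the first group, against 1.37, 1.19 and 3.61 FPKM in WT, and Tle3 at 82.6, 77.5 and 58.6 FPKM, against 26.1, 35.9 and 23.4 FPKM in WT. Tle4 was at 27.8, 35.2 and 17.8 FPKM, against 17.9, 18.8 and 14.5 FPKM in WT. The label would have these genes lower in the first group and none was, although FPKM of a whole locus cannot show the loss of single exons. The group is named by its label, as the libraries labelled Tle134-deficient, and every direction given rests on that label.

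Immediate-early genes are transcribed within minutes of a signal, without new protein synthesis, from promoters on which SRF, its ternary complex partners and CREB are already present. Fos and Jun proteins pair through leucine zippers into AP-1, and Egr factors are zinc finger proteins induced by the same MAP kinase signals. In developing lymphocytes these genes are known as readouts of antigen receptor and cytokine signalling. Tissue dissociation and cell sorting are also known to induce them.

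Promoter sequence of the first 250 bases before the start site was read for the members listed in the RefSeq-based table of build GRCm38.p6 (8 of 10 matched), a build other than the mm9 of the expression tables. Shown are the windows of Fos, Nr4a1, Jun and Dusp1, which differed in their pattern across the libraries, and a 30-base stretch of Egr2 with 2 elements side by side, 5' to 3' on the gene's own strand. Capitals mark matches on either strand to TGACGT (the CREB core), TGCGTCA (an AP-1 and CREB-like element), TGACATCA (a variant AP-1 element) or the CArG box bound by SRF. Fos lies at chr12:85473640-85473889 (plus strand), Nr4a1 at chr15:101266596-101266845 (plus), Jun at chr4:95052223-95052472 (minus), Dusp1 at chr17:26508473-26508722 (minus) and the Egr2 stretch at chr10:67537793-67537822 (plus).
Fos: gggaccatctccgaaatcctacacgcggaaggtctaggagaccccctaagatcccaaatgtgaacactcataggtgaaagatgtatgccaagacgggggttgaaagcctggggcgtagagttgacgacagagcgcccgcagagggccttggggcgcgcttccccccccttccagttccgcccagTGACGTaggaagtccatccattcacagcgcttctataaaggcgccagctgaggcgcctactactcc
Nr4a1: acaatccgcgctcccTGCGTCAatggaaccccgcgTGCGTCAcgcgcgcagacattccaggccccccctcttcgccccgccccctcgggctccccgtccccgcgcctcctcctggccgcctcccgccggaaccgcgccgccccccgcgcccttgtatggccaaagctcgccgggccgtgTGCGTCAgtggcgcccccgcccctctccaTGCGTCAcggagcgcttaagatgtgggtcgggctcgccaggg
Jun: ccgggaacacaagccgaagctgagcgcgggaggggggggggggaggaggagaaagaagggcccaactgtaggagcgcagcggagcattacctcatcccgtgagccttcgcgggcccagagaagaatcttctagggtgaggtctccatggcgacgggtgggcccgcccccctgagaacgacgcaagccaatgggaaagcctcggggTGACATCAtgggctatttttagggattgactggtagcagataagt
Dusp1: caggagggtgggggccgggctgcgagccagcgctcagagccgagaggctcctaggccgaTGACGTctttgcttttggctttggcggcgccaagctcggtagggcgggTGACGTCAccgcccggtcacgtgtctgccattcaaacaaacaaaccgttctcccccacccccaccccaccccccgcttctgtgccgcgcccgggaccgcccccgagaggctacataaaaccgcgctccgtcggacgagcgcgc
Egr2: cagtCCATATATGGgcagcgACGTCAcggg
In Fos, 1 TGACGT began 66 bases before the start, and in Dusp1 the 3 matches began 191, 143 and 141 bases before it, the last pair being both strands of 1 palindrome. Nr4a1 held 4 copies of TGCGTCA, and Jun held TGACATCA starting 45 bases before its start. TGACGT was present in 3 of the 8 members (Dusp1, Egr2 and Fos), against 6.47% of 32851 windows of the table, TGCGTCA in 2 (Fosb and Nr4a1), against 1.75%, TGACATCA in 1 (Jun), against 2.93%, and the CArG box in 1 (Egr2, near its CREB core), against 1.47%. The AP-1 consensus TGANTCA was in none of the 8 windows and in 6.75% of all windows. Egr2 was counted if any of its 5 listed windows held the motif. Egr1 and Ier2 were not matched, and nothing beyond 250 bases was read, so no match here does not mean that a gene lacks the element. The motifs were chosen with these sequences in view, TGACATCA for Jun in particular, so the shares are a description of letters in these windows.

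None of the 10 members passed the threshold between the libraries labelled Tle134-deficient and WT (limma on log2(FPKM + 1), adjusted p of 0.561 to 0.996), and none had an unadjusted p under 0.05. Over all genes tested 72 rose and 8 fell, 0.711% in either direction, or 8 and 4 with libraries set to the same total. The differences of 8 members were above 0 and those of 2 (Jun and Ier2) below, with a median log2 difference of 0.63; over all genes 52.7% of differences were above 0 and the median was 0.04. On the values as deposited, Fos was the only member whose groups did not overlap. It was higher in the libraries labelled Tle134-deficient, where 8.73% of all genes were separated in that direction. After median-of-ratios scaling Fos overlapped as well, with 109 FPKM in labelled-deficient replicate 3 against 135 FPKM in WT replicate 2. The overlap of the other members, as deposited, depended on the library left out. Without WT replicate 2, the highest WT library for 9 of 10 members, 5 members (Fos, Fosb, Junb, Jund and Egr1) were separated. All 5 were higher in the libraries labelled Tle134-deficient, against 13.7% of all genes, and still 0 passed the threshold. The members' median log2 difference was 0.96 in that fit, but 0.32 when replicate 2 labelled Tle134-deficient was left out, 0.37 when WT replicate 1 was and 0.41 when WT replicate 3 was. Without labelled-deficient replicate 3 the separated members were 4 (Fos, Junb, Jund and Egr2), against 13.3% of all genes. Without WT replicate 3 they were Fos and Egr2, against 18.2% of all genes. Fos alone was separated without labelled-deficient replicate 1, labelled-deficient replicate 2 or WT replicate 1, against 13.1%, 13.4% and 10.8% of all genes. After median-of-ratios scaling Junb overlapped even without WT replicate 2, at 82.0 FPKM in labelled-deficient replicate 3 and 85.1 FPKM in WT replicate 1. In bulk RNA, fewer cells of a type and less RNA per cell cannot be told apart.

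**Figure D1:**
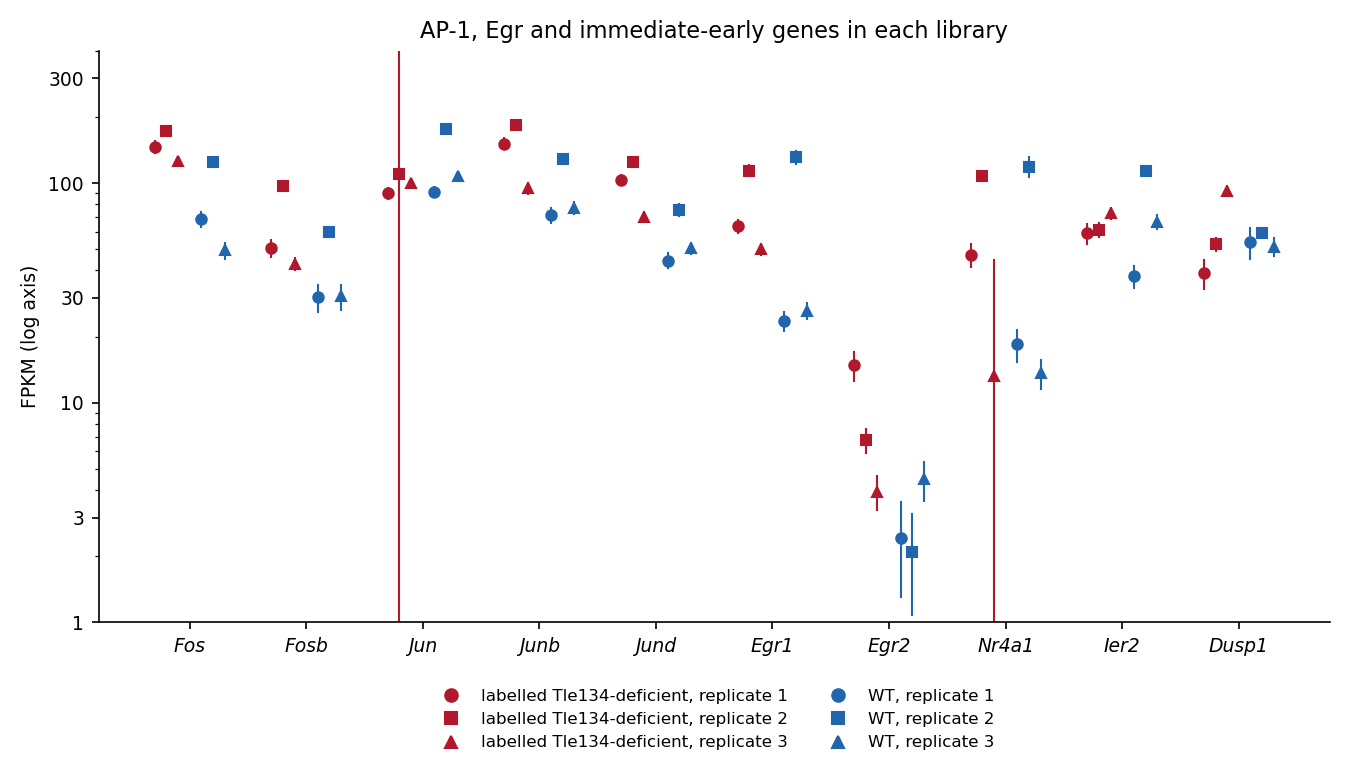
FPKM (log axis) of the 10 members in each library, red for the 3 libraries labelled Tle134-deficient and blue for the 3 WT libraries, with the symbol shape giving the replicate number and vertical lines the deposited interval, clipped at the axis limits. The squares of replicate 2 are the highest of their group for most members, and the Jun value of labelled-deficient replicate 2 and the Nr4a1 value of replicate 3 have intervals that reach 0.

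Fos (chromosome 12, 86814836 to 86818219 over the assembled loci, mm9), the founding Fos-family member, measured 145, 172 and 126 FPKM in replicates 1 to 3 labelled Tle134-deficient, against 68.3, 124 and 49.3 FPKM in WT. As deposited, the lowest value of the first group lay just above WT replicate 2, and far above the other WT values. After median-of-ratios scaling it lay below WT replicate 2 (109 against 135 FPKM). Fos averaged 148 ± 23.3 FPKM in libraries labelled Tle134-deficient and 80.6 ± 38.9 FPKM in WT (SD, n = 3 each), a log2 difference of 0.96 ± 0.50 (SE, limma adjusted p = 0.598, 95% interval -0.17 to 2.09). Leaving out 1 library at a time gave 0.66 (without WT replicate 3) to 1.32 (without WT replicate 2). Fosb (chromosome 7, 19886557 to 19895500), a Fos relative induced alongside it, measured 50.6, 97.2 and 42.9 FPKM in libraries labelled Tle134-deficient, against 30.1, 59.9 and 30.5 FPKM in WT. Replicate 2 was the highest in both groups, and the groups overlapped only through WT replicate 2 (log2 difference 0.63 ± 0.49, limma adjusted p = 0.769). With 1 library left out the difference of Fosb lay between 0.28 (without labelled-deficient replicate 2) and 0.95 (without WT replicate 2). As a share of Fos plus Fosb, Fos made up 74.2%, 63.9% and 74.5% in the libraries labelled Tle134-deficient and 69.4%, 67.5% and 61.8% in WT, ranges that overlapped.

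Jun (chromosome 4, 94715727 to 94718913), the founding Jun-family member, did not share the direction of Fos. Replicates 1 to 3 labelled Tle134-deficient held 89.8, 109.9 and 99.6 FPKM, against 90.9, 177 and 108 FPKM in WT. The first group lay within a narrow band and only WT replicate 2 stood well above it (log2 difference -0.27 ± 0.47, limma adjusted p = 0.941, 95% interval -1.33 to 0.79), and the log2 difference was 0.01 without that library. The deposited interval of Jun in labelled-deficient replicate 2 ran from 0 to 19364 FPKM, so that value is poorly determined.

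Junb (chromosome 8, 87500808 to 87502667), which can oppose Jun at some AP-1 targets, measured 151, 184 and 94.9 FPKM in libraries labelled Tle134-deficient, against 71.2, 129 and 76.8 FPKM in WT. Jund (chromosome 8, 73221638 to 73224515), the Jun relative with the steadiest expression in most cells, measured 103, 125 and 70.3 FPKM, against 44.4, 75.5 and 50.4 FPKM in WT. In both genes labelled-deficient replicate 3 lay below WT replicate 2, and all other labelled-deficient values lay above all WT values. The log2 difference was 0.63 ± 0.50 for Junb (limma adjusted p = 0.775) and 0.80 ± 0.46 for Jund (limma adjusted p = 0.651, 95% interval -0.24 to 1.84). With 1 library left out it ran from 0.42 to 0.90 for Junb and from 0.62 to 1.03 for Jund, lowest without labelled-deficient replicate 2 and highest without labelled-deficient replicate 3 in both.

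The makeup of the Jun family did not overlap between the groups. Jun contributed 26.1%, 26.2% and 37.6% of the summed FPKM of Jun, Junb and Jund in the libraries labelled Tle134-deficient, against 44.0%, 46.5% and 45.9% in WT. The mean share was 29.97% ± 6.61 in the libraries labelled Tle134-deficient and 45.4% ± 1.27 in WT (SD, n = 3 each). Jund made up the larger share in the first group, with 30.1%, 29.8% and 26.6%, against 21.5%, 19.8% and 21.4% in WT, and Junb had 43.9%, 43.9% and 35.8%, against 34.5%, 33.8% and 32.7%. The ratio of Fos to Jun was 1.62, 1.57 and 1.26 in the libraries labelled Tle134-deficient, against 0.751, 0.701 and 0.457 in WT. A ratio within a library does not change when the whole library is multiplied by 1 factor. Quantile normalization can change it, and the shares and ratios were not recomputed under it. These shares and ratios were singled out after their values were seen. For the share of Jun an exact two-sided permutation test gave p = 0.1, the smallest that 3 against 3 libraries allow, so it cannot reach the threshold and nothing rests on it. Of the 45 pairs of members 5 (11.1%) were separated between groups, judged on the difference of their log2(FPKM + 1) values. That lay below the 16.9% of all 63331885 pairs of tested genes, and 4 of the 5 were Jun against Fos, Fosb, Junb or Jund. Leaving out labelled-deficient replicate 2, whose Jun value is poorly determined, the Jun shares were 26.1% and 37.6%, still below WT.

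**Figure D2:**
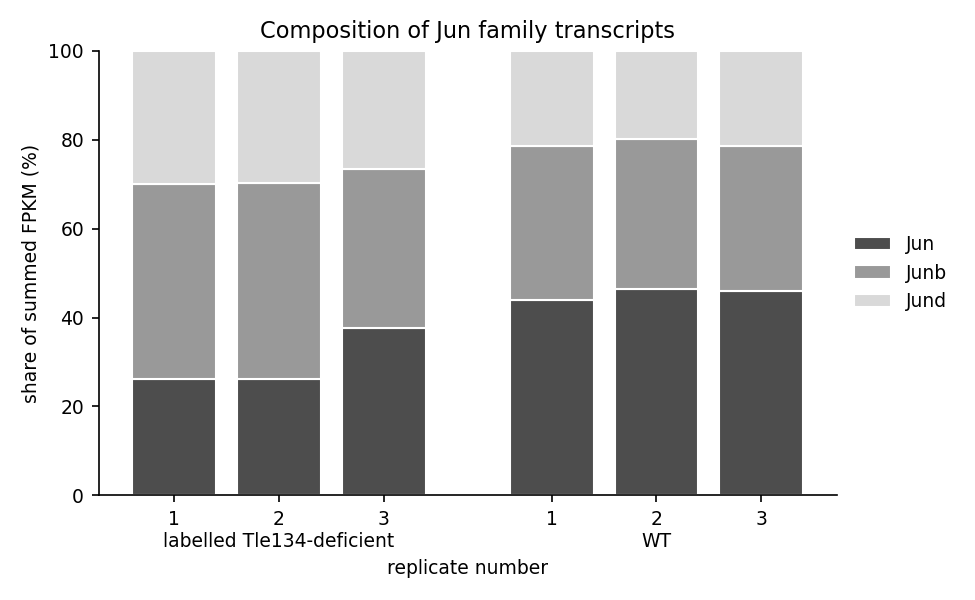
Share of Jun, Junb and Jund in their summed FPKM (percent) in each library, the 3 labelled Tle134-deficient on the left and the 3 WT on the right. Jun takes 26.1% to 37.6% in the libraries labelled Tle134-deficient and 44.0% to 46.5% in WT.

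Egr1 (chromosome 18, 35020617 to 35024610), a zinc finger factor induced through ERK, measured 63.8, 114 and 49.8 FPKM in libraries labelled Tle134-deficient, against 23.6, 131 and 26.2 FPKM in WT. WT replicate 2 was the highest of all 6, while the other WT libraries were the lowest, a 5.56-fold range within WT and a 2.28-fold range in the first group. The log2 difference was 0.70 ± 0.68 (limma adjusted p = 0.843, 95% interval -0.84 to 2.24). It depended on single libraries in both directions: it was 1.48 without WT replicate 2 (limma adjusted p = 0.408), 0.27 when WT replicate 1 was left out, 0.34 when WT replicate 3 was, and 0.37 when replicate 2 labelled Tle134-deficient was. Egr2 (chromosome 10, 66998428 to 67004958), known downstream of pre-TCR and TCR signals and in B cells, behaved differently. The libraries labelled Tle134-deficient held 14.8, 6.77 and 3.93 FPKM, against 2.42, 2.09 and 4.48 FPKM in WT. Replicate 1 was its highest library in the first group and replicate 3 in WT, and the groups overlapped only through both replicates 3. The log2 difference was 1.13 ± 0.55 (limma adjusted p = 0.561, 95% interval -0.11 to 2.37). It was 0.69 with a pseudocount of 5 and 0.68 without labelled-deficient replicate 1, below Fos and Jund in both, and 1.52 without labelled-deficient replicate 3. Egr2 is also the scarcest member, with deposited intervals of 46.4% and 48.4% to each side in WT replicates 1 and 2.

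Nr4a1 (chromosome 15, 101091243 to 101105225), an orphan nuclear receptor whose transcript follows antigen receptor signal strength in T cells, had the widest spread of the members. The 3 values were 47.2, 108 and 13.3 FPKM in replicates 1 to 3 labelled Tle134-deficient, against 18.5, 119 and 13.6 FPKM in WT. Replicate 2 was high and replicate 3 low in both groups, an 8.13-fold range in the first group and an 8.73-fold range in WT. The log2 difference was 0.38 ± 0.91 (limma adjusted p = 0.962, 95% interval -1.68 to 2.44), and it turned to -0.30 when replicate 2 labelled Tle134-deficient was left out and to -0.19 when WT replicate 3 was. Leaving out WT replicate 2 gave 1.32, and leaving out replicate 3 labelled Tle134-deficient gave 1.16. The value in labelled-deficient replicate 3 has a deposited interval of 0 to 44.6 FPKM.

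Ier2 (chromosome 8, 87182861 to 87187096), a nuclear protein gene induced with Fos, measured 59.2, 61.4 and 72.7 FPKM in libraries labelled Tle134-deficient, against 37.6, 114 and 66.6 FPKM in WT. The first group varied 1.23-fold and lay inside the WT range (log2 difference -0.04 ± 0.50, limma adjusted p = 0.996, 95% interval -1.16 to 1.09). Dusp1 (chromosome 17, 26641253 to 26645654), a phosphatase that switches off p38 and JNK, measured 38.8, 52.6 and 91.7 FPKM in libraries labelled Tle134-deficient, against 53.6, 59.3 and 51.4 FPKM in WT. Here it was the WT libraries that lay close together, within 1.15-fold, and labelled-deficient replicate 3 stood highest (log2 difference 0.07 ± 0.46, limma adjusted p = 0.989, and -0.14 after quantile normalization). The intervals of both genes include changes of more than 2-fold either way for Ier2 and upward for Dusp1, so a difference of that size remains possible.

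**Figure D3:**
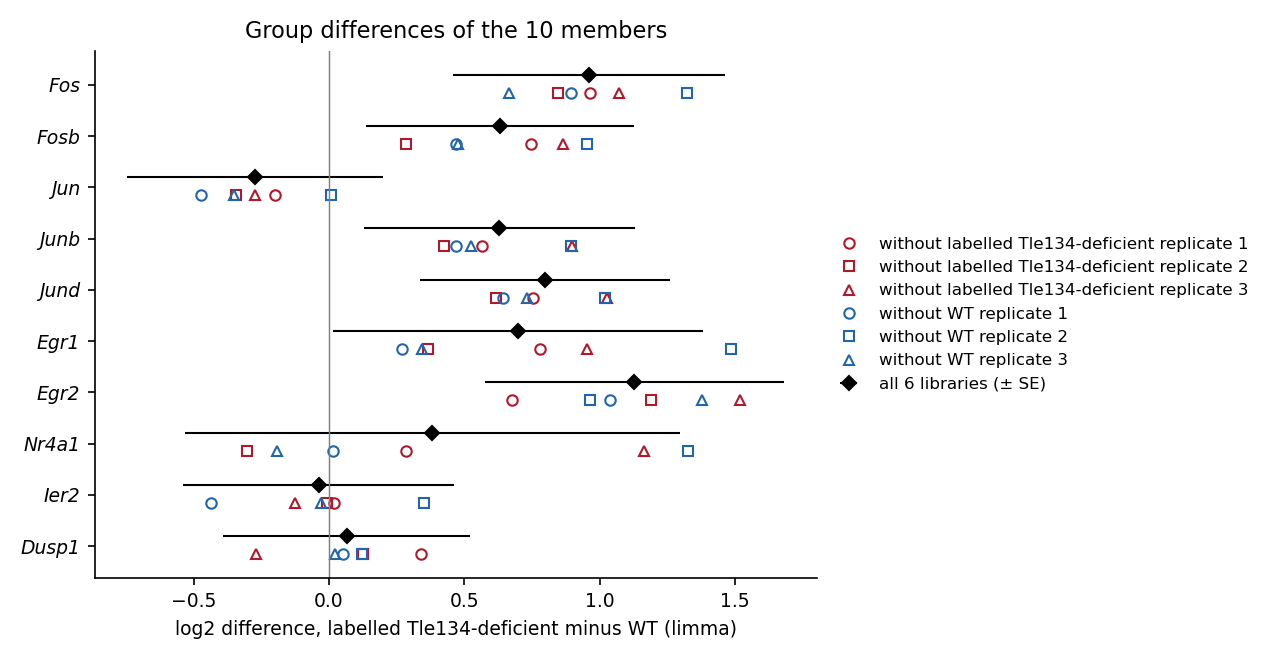
Log2 difference (labelled Tle134-deficient minus WT) for each member, with all 6 libraries (black diamonds, limma standard error) and with each library left out in turn (open symbols, red for a library labelled Tle134-deficient and blue for WT, the shape giving its replicate number). Egr1 ranges from 0.27 to 1.48 and Nr4a1 from -0.30 to 1.32, and no member passed the threshold in any of these fits.

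Of the members, 9 were abundant, between the 93.6th and the 97.5th percentile of mean FPKM over all genes tested, while Egr2 was at the 34.6th. The order of mean levels in the libraries labelled Tle134-deficient was Fos, Junb, Jun, Jund, Egr1, Ier2, Fosb, Dusp1, Nr4a1 and Egr2, and in WT it was Jun, Junb, Fos, Ier2, Egr1, Jund, Dusp1, Nr4a1, Fosb and Egr2. Neighbours in either order differed by less than the SD of at least 1 of the pair, except Fosb and Egr2 in WT.

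Most members had their highest value of a group in replicate 2. This held for 7 of 10 in the group labelled Tle134-deficient, where replicate 2 was the highest library for 25.6% of all genes tested, and for 9 of 10 in WT, where it was the highest for 27.3%. The exceptions were Egr2 in both groups, and Ier2 and Dusp1 in the libraries labelled Tle134-deficient. The counts were 8 and 9 under median-of-ratios scaling and under quantile normalization, and 9 and 10 with libraries set to the same total. The shares over all genes, 25.6% and 27.3%, were not recomputed under these scalings and hold only for the values as deposited. Median-of-ratios scaling divided replicate 2 by 0.917 (labelled-deficient) and 0.919 (WT), replicate 1 by 0.977 and 0.837, and replicate 3 by 1.16 and 1.22. Setting the same total raised most genes in replicate 2, which had the smallest total of each group, so its counts add nothing. The median log2 value of all tested genes was then 4.09 (labelled-deficient) and 5.03 (WT) in replicate 2, against 2.38 to 3.73 in the other libraries. On the mean of log2(FPKM + 1) over the 10 members, the libraries labelled Tle134-deficient stood at 6.02, 6.36 and 5.64 and the WT libraries at 5.10, 6.20 and 5.22. As deposited, WT replicate 2 thus lay above replicates 1 and 3 labelled Tle134-deficient, and the other WT libraries lay below all. After quantile normalization WT replicate 1 (5.44) also lay above labelled-deficient replicate 3 (5.30).

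**Figure D4:**
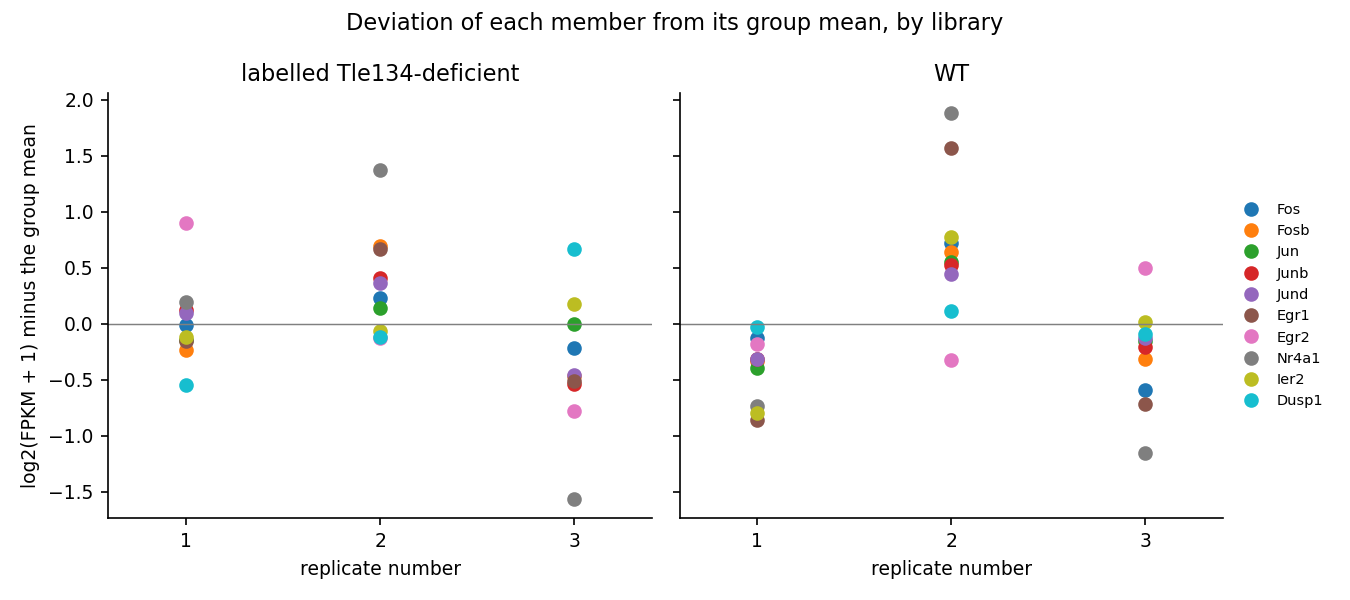
Deviation of log2(FPKM + 1) from the group mean for each member, by replicate number, in the libraries labelled Tle134-deficient (left) and WT (right). In WT replicate 2, 9 of 10 members are the highest of their group, and Nr4a1 and Egr1 deviate most.

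The residual SD of log2(FPKM + 1) about the group means had a median of 0.53 over the members and 0.63 over all genes tested, on the values as deposited. That order turned round under each rescaling: 0.65 over the members and 0.59 over all genes with median-of-ratios scaling, 0.80 and 0.58 with quantile normalization, and 1.61 and 1.18 with the same total. As deposited, Nr4a1 (1.56) exceeded 96.4% of all genes and Egr1 (1.05) exceeded 85.8%, while Jun (0.37) exceeded 15.8% and Jund (0.41) 20.7%. Without replicate 2 of both groups, an alternative chosen after seeing the data, the members' median was 0.31, against 0.59 over all genes. The deposited intervals cover the error of quantification within a library, not the spread between libraries. Their median half-width over the 60 values was 6.65%, equal to about 906 fragments if an interval spans 2 SD each side. Of the 60 intervals, 2 exceeded 50%, the Jun and Nr4a1 values that reached 0.

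**Figure D5:**
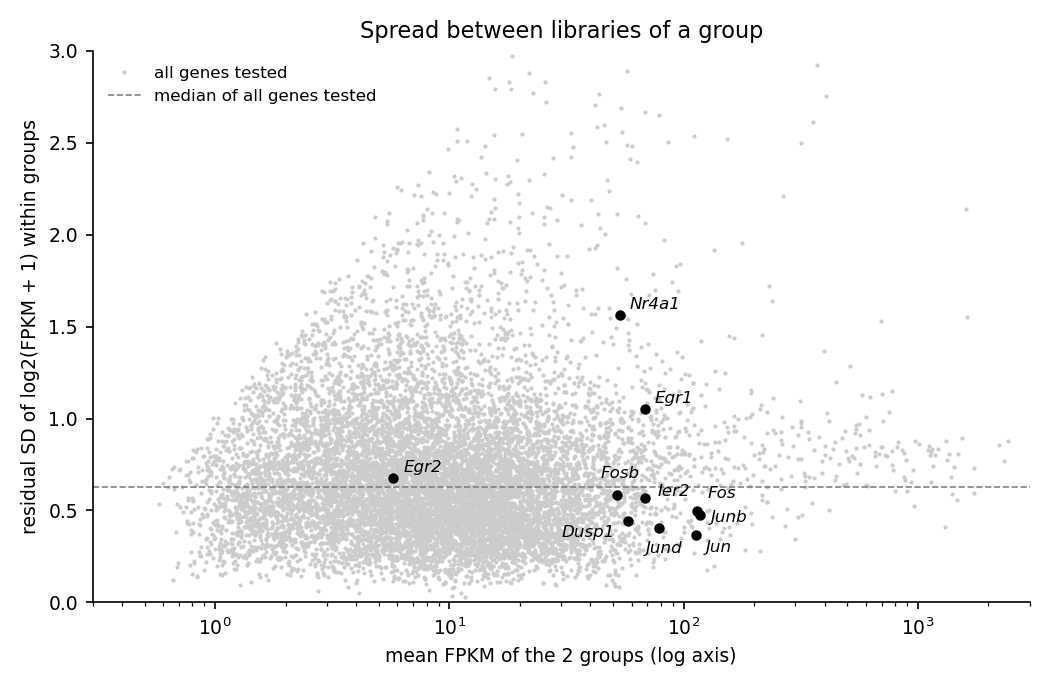
Residual SD of log2(FPKM + 1) within groups against mean FPKM (log axis) for all genes tested (grey) and the 10 members (black), on the values as deposited. Nr4a1 and Egr1 lie above the median line of all genes and the 5 AP-1 members, Ier2 and Dusp1 below it, with Egr2 (0.67) just above. After quantile normalization the 5 AP-1 members and Ier2 lay above the median of all genes, and after median-of-ratios scaling Fos, Fosb and Junb did. 36 of 11255 genes fall outside the axes.

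None of the other genes of the pathway passed the threshold. Of 13 other AP-1 and Maf bZIP factors tested, 0 rose and 0 fell, with a median log2 difference of 0.18 and Bach2, a repressor of AP-1 sites in lymphocytes, at the smallest adjusted p (24.6, 19.3 and 3.15 FPKM, against 1.81, 4.56 and 3.53 FPKM in WT, limma adjusted p = 0.462). Of 5 other Egr, Nr4a and Nab genes 0 passed (median 0.74), led by Egr3, which acts with Egr2 (12.2, 20.0 and 5.54 FPKM, against 0.98, 5.997 and 4.15 FPKM in WT, limma adjusted p = 0.425). Of 28 other immediate-early genes 0 passed, with 19 differences above 0 and a median of 0.29. Rgs2, a regulator of G-protein signalling, came first (110, 169 and 91.2 FPKM, against 26.5, 39.8 and 73.1 FPKM in WT, limma adjusted p = 0.338), and its groups did not overlap. Of the 28, 3 were separated higher and 1 lower, against 8.73% and 6.52% of all genes. In this list replicate 2 was again the highest library, for 16 of 28 genes in the libraries labelled Tle134-deficient and 17 of 28 in WT. Over all genes tested the shares were 25.6% and 27.3%. The counts were 5 and 6 of the 13 AP-1 and Maf factors above. Of the 5 Egr, Nr4a and Nab genes they were 2 and 3. They were 3 and 3 of the 8 phosphatases below, and 5 and 7 of the 21 SRF, ternary complex, CREB and MAP kinase genes.

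Of 8 other dual-specificity phosphatases 0 passed (median -0.08). Dusp4, which is induced by ERK and dephosphorylates MAP kinases in the nucleus, measured 42.7, 36.9 and 21.9 FPKM in libraries labelled Tle134-deficient, against 8.81, 8.12 and 12.5 FPKM in WT. Its groups did not overlap and its log2 difference was 1.66 ± 0.41 (limma adjusted p = 0.135). Of the 8 phosphatases 3 were separated higher and 1, Dusp5, lower, against 8.73% and 6.52% of all genes, and 5 of the 8 differences were below 0. Of 21 SRF, ternary complex, CREB and MAP kinase genes 0 passed (median 0.24), with Map2k1, the ERK kinase MEK1, first (37.1, 23.8 and 14.1 FPKM, against 11.5, 9.71 and 12.5 FPKM in WT, limma adjusted p = 0.488). Of 13 heat shock genes 0 passed (median -0.28), and they did not share the replicate 2 pattern: that library was the highest for 4 of 13 in the libraries labelled Tle134-deficient and 1 of 13 in WT. Hspa1a, the inducible Hsp70 gene, had the smallest adjusted p (0, 1.05 and 0 FPKM, against 3.64, 2.05 and 1.38 FPKM in WT, limma adjusted p = 0.379).

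Among 7606 tested genes with a mean of at least 5 FPKM, predicted gene models left out, the 5 whose log2(FPKM + 1) most resembled the members' mean across the 6 libraries were Stk17b, Lrba, Rasgef1b, Slc25a45 and Adamts6, with Pearson r of 0.976 to 0.987. With 6 points from 2 groups such values are a description, and 75 genes had r above 0.9. Rasgef1b measured 24.9, 91.0 and 13.6 FPKM in libraries labelled Tle134-deficient, against 1.86, 40.1 and 1.42 FPKM in WT. Stk17b, a lymphocyte kinase gene, measured 132, 190 and 62.1 FPKM, against 32.7, 154 and 48.8 FPKM in WT.

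Cell type markers and library quality also differed between the libraries. Summed FPKM of 12 B-lineage markers was 630 to 1035 in the libraries labelled Tle134-deficient, against 78.4 to 134 in WT, and 10 of the 12 were above 0 in every library. Of these markers 8 rose, Cd22, Fcer2a and Spib with the smallest adjusted p (limma, 0.0195, 0.0314 and 0.0322). These calls were lost, with 0 of all genes called higher, with the replicate block, without a filter and on leaving out replicate 1 or 2 of either group. The 11 T-lineage markers summed to 271 to 802 FPKM, against 430 to 1193 FPKM in WT, and all were above 0 in every library. The sum was lower in WT replicate 2 (430) than in WT replicates 1 and 3 (928 and 1193). Of 8 stromal and endothelial markers the sums were 41.6 to 88.9 FPKM, against 77.9 to 219 FPKM in WT, with the lowest WT value in replicate 2, and Pdgfrb fell (limma adjusted p = 0.0488), a call lost, with 0 genes called lower, on leaving out any 1 WT library or replicate 1 labelled Tle134-deficient, with the replicate block and without a filter. Of 12 monocyte, macrophage and neutrophil markers 11 were found, and they summed to 53.3 to 689 FPKM, against 37.7 to 256 FPKM in WT. Mast cell and basophil markers summed to 1.60 to 69.0 FPKM, against 42.7 to 223 FPKM in WT. Tpsb2 was at 0 in the 3 libraries labelled Tle134-deficient, against 5.82, 3.66 and 17.5 FPKM in WT. Tpsab1 was at 0 there too, against 0, 0.364 and 2.14 FPKM in WT. In labelled-deficient replicate 3, however, Ms4a2 stood at 30.1, Cpa3 at 21.5 and Mcpt8 at 16.3 FPKM. Of the 6 mast cell and basophil markers tested, 5 differences were below 0 and 1, that of Ms4a2, above. The 8 dendritic cell markers summed to 54.8 to 87.6 FPKM, against 92.8 to 115 FPKM in WT, without overlap. Ccr9 made up most of the WT sums (24.9, 25.3 and 7.73 FPKM, against 79.1, 59.6 and 55.9 FPKM in WT). Of the 6 tested, 3 differences were above 0 and 3 below (median 0.04), whereas all 12 B-lineage differences were above 0. NK and innate lymphoid markers overlapped (103 to 200 FPKM, against 90.9 to 166 FPKM in WT). Ncr1 was near the floor in both groups, at 0 in the 3 libraries labelled Tle134-deficient and 0, 0.153 and 0 FPKM in WT. The replicate 2 libraries also held the most loci without a symbol, 87.0% in the library labelled Tle134-deficient and 85.2% in WT, against 67.5% to 80.4% in the other 4. The part of any of these in the members' values was not tested. Of the sorting markers, Cd44 was at 32.5 to 74.3 FPKM, against 27.5 to 53.4 FPKM in WT, Cd8a at 0 to 0.419 FPKM, against 0.274 to 2.48 FPKM in WT, and Il2ra, which encodes CD25, at 4.22 to 7.36 FPKM, against 1.69 to 3.59 FPKM in WT.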

How the data were processed

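RNA from 6 libraries of sorted DN1 thymocytes was sequenced, and 1 table per library was used. The tools featureCounts 2.0.1, TopHat2 2.1.1 and Trimmomatic 0.38 and the build mm9 stand in the submitters' processing notes, with no role or order. The deposited values are FPKM with a lower and upper bound, per the file headers, in the layout of a Cufflinks gene table. Annotation, strandedness and the version of that program are not given in the sources. FPKM carries no read totals, so depth is unknown. If the deposited bounds span 2 SD each side, loci with a symbol held about 1420000 to 4340000 fragments per library.

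FPKM was summed per symbol after splitting on the comma (Python 3.11.15, pandas 2.3.3), and symbols with the same values in all 6 libraries counted as 1 gene. Locus starts were raised by 1. Genes at 1 FPKM or more in 3 or more libraries were tested. Values of log2(FPKM + 1), a scale that understates the change of low genes, went into limma 3.58.1 under R 4.3.3 (group as the only term, mean-variance trend, robust), with Benjamini-Hochberg adjustment over all 11255 genes and a threshold of 0.05. The fit was tested on simulated data. No 2 libraries held identical values. The members and lists were chosen with earlier results of these data known. All members were named; of every other list, up to 3 called genes in each direction or else the gene with the smallest adjusted p. Alternatives changed the pseudocount, filter, scaling, empirical Bayes options, joining of symbols, replicate block and libraries used.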

Additional observations from a re-analysis of the deposited data

How the results depend on the processing

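No member passed the threshold under any of the 17 alternatives (smallest limma adjusted p 0.278, Fos with the replicate block), and the members' median log2 difference stayed between 0.32 and 0.96. Fos, Fosb, Junb, Jund, Egr1 and Egr2 stayed above 0 in all 17, while Jun changed sign in 1, Nr4a1 in 2, Ier2 in 3 and Dusp1 in 2. The count of all genes called, 72 higher and 8 lower, was 30 and 2 with a pseudocount of 0.1, 56 and 5 with a pseudocount of 5, 50 and 5 without trend and robust options, 8 and 4 with libraries set to the same total, 71 and 12 with symbols sharing a locus joined, and 0 and 0 without a filter (1184 at an unadjusted p under 0.05). Leaving out 1 library gave 0 to 59 higher and 0 to 7 lower: 0 and 0 without labelled-deficient replicate 1, WT replicate 1 or WT replicate 2, 0 and 1 without labelled-deficient replicate 2, 14 and 7 without labelled-deficient replicate 3, and 59 and 0 without WT replicate 3. Without replicate 2 of both groups it was 0 and 0 (677 at an unadjusted p under 0.05). The members' median residual SD, 0.53, was 1.61 with the same total (1.18 over all genes) and 0.31 without replicate 2 of both groups (0.59 over all genes). The cause of these changes was not tested.

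With the replicate number as a block, the count was 0 and 0 (1394 genes, among them Fos and Jund, at an unadjusted p under 0.05). The numbers share no stated origin: over all genes tested, deviations from the group means correlated at 0.08, 0.19 and 0.17 between libraries 1, 2 and 3 of the groups, not all above 0.1, although every library correlated best with its own number, a hint from the data and not the design. Over the 10 members the values were 0.05, 0.83 and 0.46, and the libraries numbered 1 did not correlate best with each other.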
